A study of Mus musculus with 18 samples.

Results

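The genes described here are those whose RNA differed between Cdh13-deleted and floxed mouse islets over 3 conditions at once, in the same direction in each. For every gene the deleted minus floxed difference of log2(FPKM + 1) was taken in each condition, and the 3 differences were averaged with equal weight. FPKM is a read count scaled to transcript length and library size, and the added 1 keeps low values from dominating but understates their fold changes. Of 12234 genes tested, out of 24346 listed, 442 had a mean difference with an adjusted p below 0.05 (3.61%), of which 150 were higher (1.23%) and 292 lower (2.39%) in deleted islets, by limma with Benjamini-Hochberg adjustment over all tested genes. Of these 442 genes, 295 had the same sign in all 3 conditions (2.41% of the genes tested). They are called the shared genes below, 112 of them higher in deleted islets (0.915%) and 183 lower (1.5%).

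Islets, the endocrine cell clusters of the pancreas, had been isolated from C57BL/6 mice for 18 libraries, with 3 libraries in each of 6 groups. The deleted groups, labelled as lacking exon 2 of Cdh13, were taken at 8 weeks of age on normal chow, at 14 weeks on normal chow, and at 14 weeks with HFD, a high-fat diet, fed for the last 6 weeks. The floxed groups, with exon 2 flanked by loxP sites, were taken at the same ages and diets, and the series' design text calls them wild type. The labels do not say in which cells or by which Cre the exon was removed, nor whether each library came from a separate animal, so the p-values measure only the spread between these samples.

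Cdh13 encodes T-cadherin, a cadherin held in the membrane by a lipid anchor instead of a cytoplasmic tail. It binds adiponectin, the hormone of fat cells, and in many tissues it is known best from blood vessel walls. Islet beta cells take up glucose and oxidise its carbon through glycolysis and the mitochondria, which couples blood glucose to insulin release. Glycolytic enzyme genes are among the known targets of the hypoxia-inducible factors, while the transcription factor NRF2 drives genes of the antioxidant response.

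The removed exon, which separates the genotypes, lies on the plus strand at chr8:118505604-118505715 (mm10). It is exon 2 of 14 and holds 112 of 3785 bases of summed exon length in the GENCODE M21 coding transcript. Its length leaves a remainder of 1 when divided by 3, so a transcript that joins exon 1 to exon 3 would change its reading frame. The exon is in capitals below, between 15 coding bases of exon 1 and 15 of exon 3.
Cdh13 exon 2: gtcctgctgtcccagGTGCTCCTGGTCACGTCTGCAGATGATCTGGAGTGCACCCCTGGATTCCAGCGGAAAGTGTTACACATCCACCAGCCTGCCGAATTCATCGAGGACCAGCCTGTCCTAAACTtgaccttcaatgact

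The targeted gene was low and was itself one of the shared genes. In deleted islets Cdh13 measured 0.765, 0.778 and 0.353 FPKM at 8 weeks, 0.691, 0.419 and 0.544 FPKM at 14 weeks on chow, and 0.247, 0.809 and 0.311 FPKM on HFD. In floxed islets it measured 1.09, 1.08 and 1.84 FPKM at 8 weeks, 1.63, 2.06 and 1.33 FPKM at 14 weeks on chow, and 1.38, 1.17 and 1.43 FPKM on HFD. All 9 deleted libraries lay below all 9 floxed libraries. The mean difference was -0.66 on the log2 scale (SE 0.0968, adjusted p = 5.91e-04, limma). The values cover all 14 exons and are no measure of the deleted exon alone. Of 82 tested genes within 5 Mb of Cdh13, the shared set held Cdh13 alone, beside 2.41% of all tested genes. Necab2, 122 kb away, was called in the mean (-0.37, adjusted p = 0.0204, limma). Its signs differed between conditions (-0.19, 0.41 and -1.33). The shared gene Pgbd5 lies just outside this distance.

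Some facts of the libraries touch every result. The number of reads is unknown, summed FPKM ran from 903346 to 1394009 per library, and 11474 to 11787 genes reached 1 FPKM. Islet hormone genes led all libraries, with Ins2 at 40.2% to 52.7% of summed FPKM, and the adipocyte genes Adipoq and Plin1 were at 0 throughout. Transcripts of acinar cells, the enzyme-making cells around islets, made up 0.00488% to 0.317% of summed FPKM in deleted libraries and 0.00212% to 0.659% in floxed libraries. They varied more within groups than between genotypes, and 0 of 13 tested acinar genes were shared genes. In whole islets, fewer cells of a type and less RNA per cell cannot be told apart.

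The 3 conditions did not contribute equally. On their own, 67 genes were called at the age of 8 weeks (0.548%), 14 in the older chow groups (0.114%) and 1312 on HFD (10.7%). The shares higher in deleted islets were 0.18%, 0.0654% and 4.7%, and the shares lower were 0.368%, 0.049% and 6.02%. Of the 295 shared genes, 196 were called on HFD, 29 at 8 weeks and 6 at 14 weeks on chow, while 77 were called in none of these alone. The difference was largest on HFD for 196 of them, at 8 weeks for 66 and at 14 weeks on chow for 33. The size of the difference was itself unequal between conditions for 38 shared genes (12.9%; 4.74% of all tested genes), by limma's joint test of the 3 differences. Of the 147 genes called in the mean but with opposite signs between conditions, 96 were unequal (65.3%), a share that choosing genes by opposite signs raises. Same-sign differences of any p were found for 3250 of the 12234 tested genes (26.6%).

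Most shared genes moved little. The median mean difference was 0.23 among those higher and -0.32 among those lower, and 27 differed by at least 0.5, of which 4 were higher and 23 lower in deleted islets. Their median level was 15.2 FPKM, against 9.88 FPKM for all tested genes, and 67 of them averaged below 5 FPKM. Just inside the threshold stood Rsl1 (adjusted p = 0.0496), Misp (adjusted p = 0.0492) and Tars (adjusted p = 0.0490) by limma. Just outside it stood Fli1 and Pms1 (both adjusted p = 0.0503, limma) and Rps15a-ps6 (adjusted p = 0.0510, limma).

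To read the sign in libraries that took no part in a call, genes were called over 2 conditions and then followed in the third. Without the 8-week libraries, 542 genes were called in one direction, and 275 of them (50.7%) had the same sign at 8 weeks, against 51.7% of all genes with one sign over the same 2 conditions. Without the 14-week chow libraries, 482 were called and 268 (55.6%) kept their sign at 14 weeks on chow, against 53.0% of all such genes. Without the HFD libraries, 25 were called, 6 higher and 19 lower, and 14 of them (56.0%) kept their sign on that diet, against 51.6%. The share that kept its sign was within 5 percentage points of the background in each case. The call itself recurred for 11 of 542 genes at 8 weeks, where 3 more were called in the opposite direction, and for 4 of 482 at 14 weeks on chow, where 0 were called in the opposite direction. At these ages 0.548% and 0.114% of all tested genes were called in either direction. On the HFD it recurred for 9 of 25, where 10.7% of all tested genes were called, and 3 more of the 25 were called in the opposite direction.

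**Figure D1:**
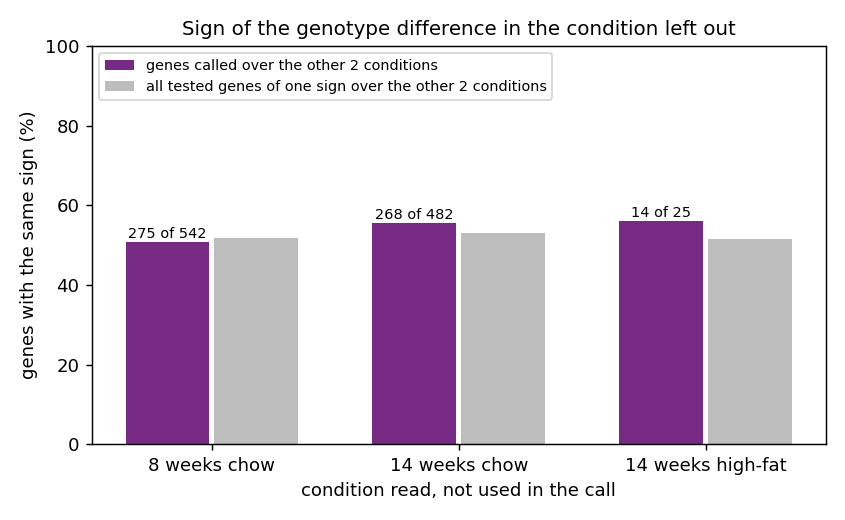
Share of genes (%, vertical axis) whose deleted minus floxed difference in the condition named on the horizontal axis had the sign found over the other 2 conditions. Purple bars are genes called over those 2 conditions, with counts above, and grey bars are all tested genes of one sign over them; each pair of bars lies between 50.7% and 56.0%.

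The 9 genes called on chow and again on HFD formed the most repeated core. Of these, 7 were lower in deleted islets, namely Ide, Fgfbp3, Cdh13, Pdxp, Cryba2, B930041F14Rik and Aldoc. Enpp2 and Adora2b were higher in deleted islets.

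Ide encodes the insulin-degrading enzyme, a zinc protease that cuts insulin and other small peptides. Its deleted libraries measured 26.6, 25.1 and 27.5 FPKM at 8 weeks, 24.4, 25.1 and 25.7 FPKM at 14 weeks on chow, and 26.2, 25.9 and 25.2 FPKM on HFD. Its floxed libraries measured 49.6, 49.3 and 47.7 FPKM, 52.1, 48.5 and 48.4 FPKM, and 52.7, 53.3 and 48.3 FPKM in the same conditions. The highest deleted library stayed far below the lowest floxed library, and the differences of -0.87, -0.96 and -0.97 were alike in size. Ide had the smallest adjusted p of all tested genes in the mean of conditions (-0.93, SE 0.0343, adjusted p = 7.21e-13, limma).

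Fgfbp3, which encodes a secreted carrier of fibroblast growth factors, had the largest mean fall of the shared genes (-1.02, SE 0.0935, adjusted p = 6.27e-06, limma). Its deleted libraries held 1.76, 3.22 and 2.80 FPKM at 8 weeks, 2.46, 3.16 and 2.40 FPKM at 14 weeks on chow, and 3.12, 3.45 and 3.30 FPKM on HFD. Its floxed libraries held 9.84, 7.18 and 5.82 FPKM, 6.99, 5.20 and 5.67 FPKM, and 6.29, 7.71 and 6.63 FPKM in that order. The genotypes were again apart in all 18 libraries. Ide and Fgfbp3 were the only shared genes called in each condition on its own, as were 0.0245% of all tested genes. Btaf1, an ATPase that removes the TATA-binding protein from DNA, lies between them on chromosome 19 and was also lower (-0.36, adjusted p = 0.00222, limma). The run from Fgfbp3 to Ide spans 417 kb, while Cdh13 lies on chromosome 8. Whether the differences in this run follow from the Cdh13 deletion was not tested. The Btaf1 difference was -0.49 at each chow age and -0.09 on HFD.

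Pdxp, a phosphatase of pyridoxal phosphate and of the actin regulator cofilin, was lower by a mean of 0.54 on the log2 scale (difference -0.54, adjusted p = 4.49e-05, limma). It stood at 53.4%, 74.8% and 69.4% of the floxed mean in deleted islets in the 8-week, 14-week chow and HFD groups. Cryba2 encodes a beta crystallin, a structural protein named for the eye lens. It held 21.6 to 31.4 FPKM in deleted libraries, against 31.3 to 50.6 FPKM in floxed ones. Its differences of -0.52, -0.42 and -0.47 in the 3 conditions were closely alike (mean -0.47, SE 0.0475, adjusted p = 1.30e-05, limma). B930041F14Rik, a gene with no function assigned here, averaged 17.6 ± 6.61 FPKM over the deleted libraries and 26.6 ± 9.26 FPKM over the floxed ones (SD, n = 9). Both genotypes were higher on HFD than on chow, and the genotypes overlapped at 14 weeks on chow only, where the deleted libraries held 15.1, 17.0 and 10.1 FPKM and the floxed libraries 21.3, 17.2 and 16.3 FPKM.

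Enpp2 encodes autotaxin, the secreted enzyme that makes the signalling lipid lysophosphatidic acid. It measured 60.5, 61.4 and 68.0 FPKM in deleted islets at 8 weeks, 63.1, 62.8 and 64.0 FPKM at 14 weeks on chow, and 54.9, 52.2 and 46.8 FPKM on HFD. The floxed values were 56.6, 55.2 and 53.1 FPKM, 52.5, 49.4 and 48.0 FPKM, and 33.1, 31.4 and 29.3 FPKM. Deleted libraries were above floxed libraries in each condition, and the gap was widest on HFD (0.69, against 0.20 and 0.34 on chow; mean 0.41, adjusted p = 7.98e-06, limma). The size of the Enpp2 difference was unequal between conditions (adjusted p = 0.00880, limma). Adora2b, a receptor for adenosine that raises cyclic AMP, averaged 29.2 ± 3.38 FPKM over the deleted libraries and 22.2 ± 2.41 FPKM over the floxed ones (SD, n = 9). Its mean difference was 0.38 (adjusted p = 2.48e-05, limma), and the genotypes overlapped at 8 weeks alone.

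**Figure D2:**
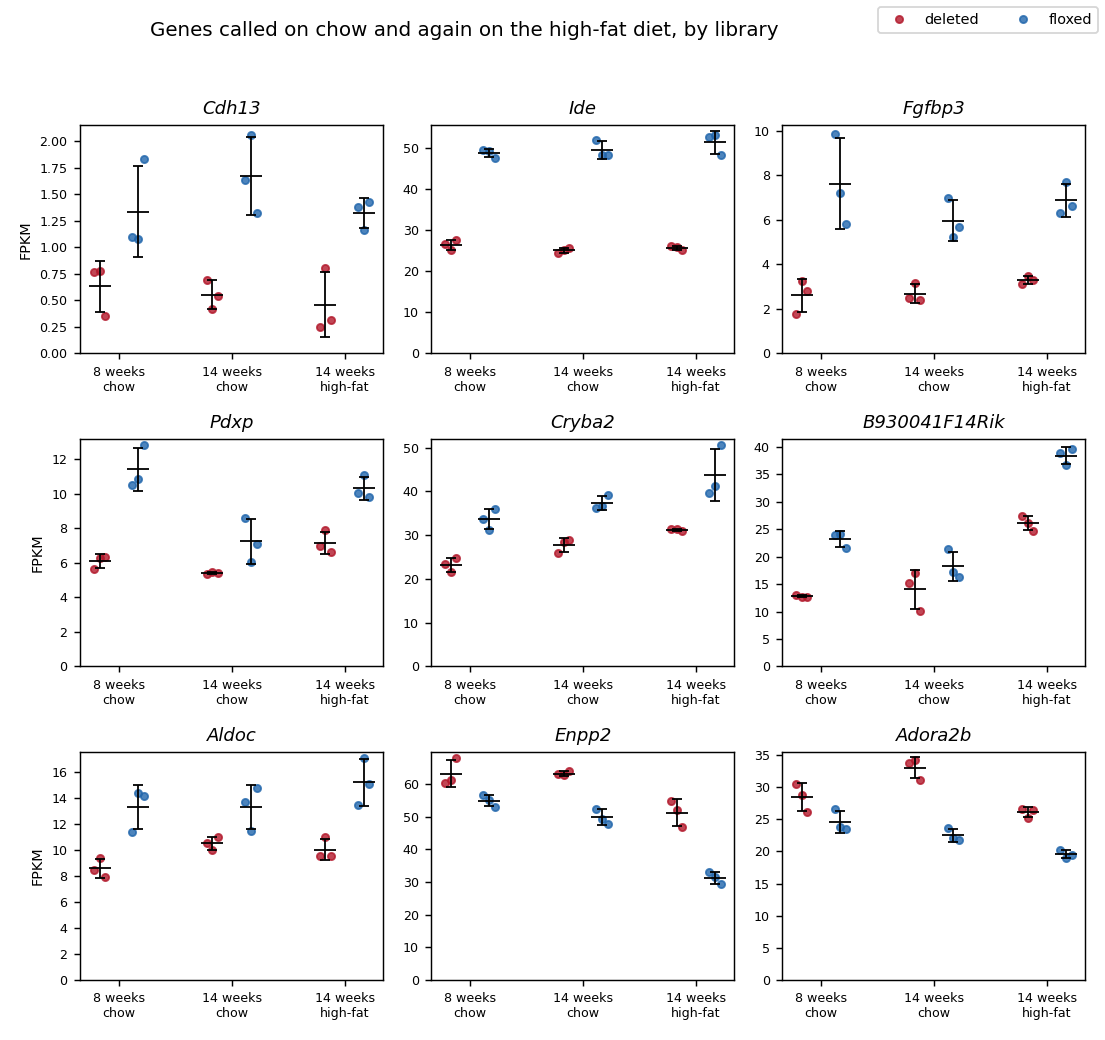
FPKM (vertical axis, from 0) of the 9 genes called on chow and again on HFD, in each of 18 libraries, with deleted libraries in red to the left of floxed libraries in blue within each condition. Black marks are the mean and SD of 3 libraries; Ide holds 24.4 to 27.5 FPKM in deleted libraries, against 47.7 to 53.3 FPKM in floxed ones.

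Of the other 16 genes called over the chow conditions, 5 were shared genes that were not called in the same direction on HFD. Star, which carries cholesterol into mitochondria for steroid synthesis, measured 17.98, 19.6 and 17.7 FPKM in deleted islets at 8 weeks and 21.2, 23.0 and 25.1 FPKM at 14 weeks on chow. The floxed values were 13.2, 11.9 and 11.2 FPKM and 10.7, 10.3 and 8.62 FPKM. On the HFD it stood at 36.8, 31.7 and 25.7 FPKM in deleted and 32.1, 27.4 and 27.6 FPKM in floxed islets, where the genotypes overlapped. Its differences of 0.58, 1.15 and 0.10 were unequal (adjusted p = 0.00179, limma). The calcium-binding protein gene S100a6 (0.80, 0.35 and 0.11) and the regucalcin gene Rgn (0.28, 0.64 and 0.25) were higher in deleted islets. Btaf1 and Pgbd5, a gene derived from a transposase (-0.48, -0.59 and -0.03), were lower. Gfra3, a receptor subunit for the neurotrophic factor artemin, Map3k15, a kinase gene, and Ttr, which encodes the thyroxine carrier transthyretin, were lower on chow and higher on HFD. Ttr, for example, had differences of -0.53, -0.23 and 0.61.

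Without overlap between genotypes in any of the 3 conditions, 10 shared genes were higher (0.114% of all tested genes did so) and 22 were lower (0.196%) in deleted islets. Within single conditions such separation was common over all tested genes, at 7.19%, 6.25% and 16.4% with deleted libraries above and 9.35%, 7.36% and 15.2% with deleted libraries below. Over all 18 libraries together, 7 tested genes had every deleted library below every floxed library, and 0 had every deleted library above. The 7 were Ide, Fgfbp3, Cdh13, Aldoc, Aldoa, P4ha1 and Ppp2r5c. Ppp2r5c, a regulatory subunit of protein phosphatase 2A, showed how small such a difference could be, with 41.9 to 46.4 FPKM in deleted libraries, against 47.1 to 52.0 FPKM in floxed ones (-0.14, adjusted p = 0.0293, limma). Its call ended when any of 7 single libraries was left out (adjusted p up to 0.0623, limma). Here and below such endings were read from the adjusted p alone, without the signs. Without replicate 1 of the floxed 14-week chow libraries, for example, 216 of the 295 genes were still called and 205 were still shared.

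Other genes without overlap had varied roles. Adra2a encodes the adrenergic receptor that restrains insulin release, and its differences were -0.39, -0.32 and -0.24 (mean adjusted p = 0.0145, limma). Kcnh6, a voltage-gated potassium channel gene, differed by -0.17, -0.18 and -0.20. Hs6st1, which adds sulfate to heparan sulfate, differed by -0.53, -0.65 and -0.17, and Mfi2, which encodes the iron-binding surface protein melanotransferrin, by -0.57, -0.23 and -0.30. Cdk2ap1, an inhibitor of the cell cycle kinase CDK2, held 50.9 to 170 FPKM in deleted libraries, against 105 to 191 FPKM in floxed ones (mean -0.57, adjusted p = 0.0173, limma). The kinase gene Stk39 (mean -0.21) and Ldb1, a cofactor of islet LIM transcription factors (mean -0.16), were lower by less. Among those higher, Plk3, a stress-responsive kinase gene, differed by 0.13, 0.22 and 0.51 and Cyb5b, a cytochrome b5 of the outer mitochondrial membrane, by 0.10, 0.10 and 0.42, and both were unequal between conditions. Thumpd3 was nearly constant at 0.21, 0.19 and 0.17. The apoptosis inhibitor gene Api5 differed by 0.14, 0.12 and 0.22, a call that ended without replicate 3 of the floxed HFD libraries (adjusted p = 0.0546, limma). The gene 2010111I01Rik (0.10, 0.33 and 0.10) overlaps Fancc on the other strand by 41054 bases. A preparation that does not mark strand cannot separate their reads there. Api5 overlaps 2810002D19Rik by 1 base only. Thumpd3, Ldb1 and Plk3 also overlap a neighbour in GENCODE M21. So do Ankrd37, Tpi1, Ttll3, Irf7, Egfl7, Snx25, Neurod1, Klk14, Cdh8, Dll4 and Pdia4, described below. These overlaps differ in length, with 34 bases for Tpi1, 45 for Irf7, 328 for Klk14 and 4231 for Neurod1, for example. The longest were 6405 bases for Ankrd37 and 8270 for Cdh8, with neighbours that were not among the tested genes.

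**Figure D3:**
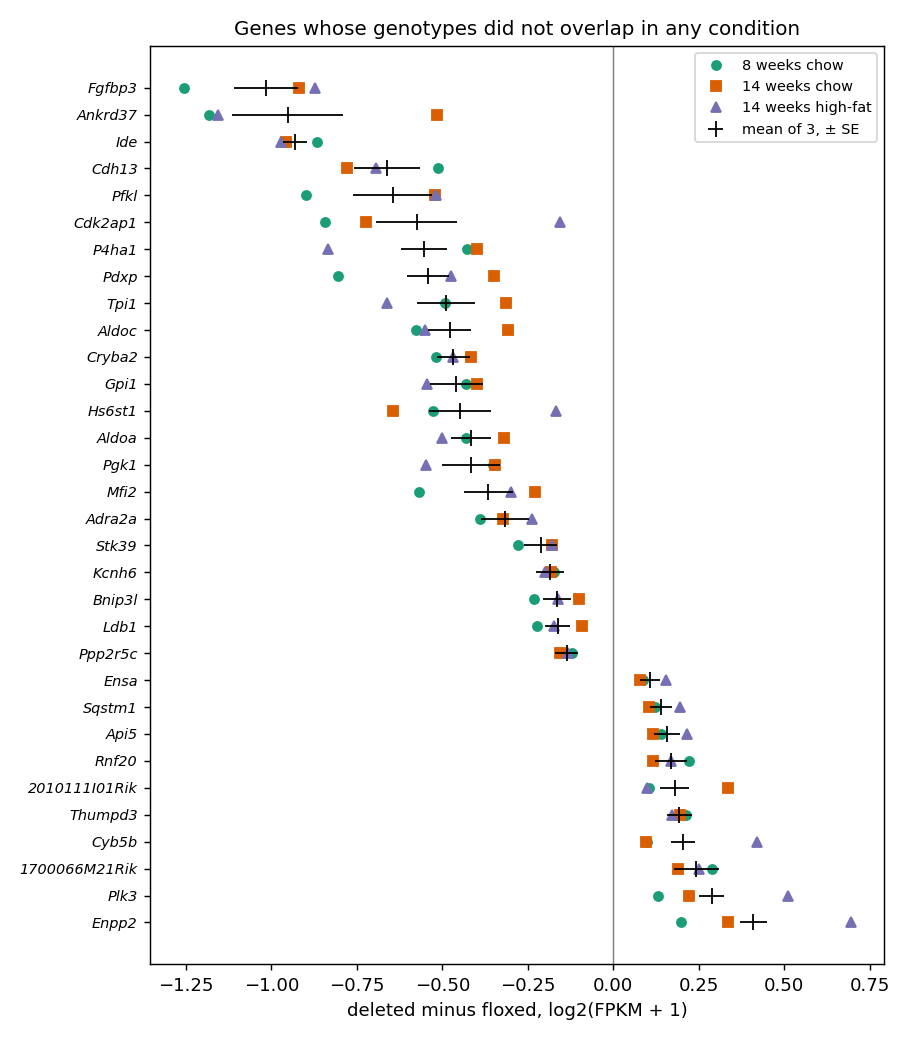
Deleted minus floxed difference of log2(FPKM + 1) (horizontal axis) for the 32 shared genes whose genotypes did not overlap in any condition, 10 higher and 22 lower. Colored symbols are the 3 conditions and black ticks the mean with its SE; the 3 symbols lie close together for Ide, Cryba2, Kcnh6 and Thumpd3 and far apart for Ankrd37, P4ha1 and Enpp2.

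Glycolysis held the largest group of shared genes among the 22 lists fixed with the design. These lists were chosen with earlier results of these data known, so the counts are descriptions. Of 15 tested glycolysis genes, 9 were shared genes lower in deleted islets and 0 were higher, beside 1.5% and 0.915% of all tested genes. A further 3 of the 15 were below 0 in all conditions without a call. The list's median difference was -0.38 over the conditions, against -0.000636 for all tested genes, and -0.24, -0.31 and -0.50 in the 8-week, 14-week chow and HFD groups. Replicate 3 of the floxed 8-week libraries had the highest level of the list at that age, and 8 genes of the list were called without it. Without the HFD libraries 1 was called.

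The 9 genes cover most steps of the pathway. They were Gpi1, which turns glucose 6-phosphate into fructose 6-phosphate, the phosphofructokinase gene Pfkl, the aldolase genes Aldoa and Aldoc, the triosephosphate isomerase gene Tpi1, the kinase gene Pgk1, the mutase gene Pgam1, the enolase gene Eno1 and the lactate dehydrogenase gene Ldha. Aldoa, the most abundant, held 1071, 888 and 854 FPKM in deleted islets at 8 weeks, 951, 1005 and 1021 FPKM at 14 weeks on chow, and 1003, 1012 and 999 FPKM on HFD. Its floxed libraries held 1146, 1177 and 1476 FPKM, 1259, 1121 and 1350 FPKM, and 1327, 1621 and 1334 FPKM. Deleted libraries were nearly level across conditions, and replicate 3 of the floxed 8-week group and replicate 2 of the floxed HFD group were the highest of all. The Aldoa mean difference was -0.42 (SE 0.0583, adjusted p = 3.89e-04, limma).

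Pfkl, the liver-type enzyme of the committed step, stood at 50.8%, 69.3% and 67.7% of the floxed mean in deleted islets (mean -0.65, adjusted p = 0.00678, limma). Tpi1 stood at 69.3%, 80.0% and 62.6%, Gpi1 at 72.5%, 75.5% and 67.4%, and Pgk1 at 76.4%, 78.3% and 67.3%. Aldoc, Aldoa, Gpi1, Tpi1, Pfkl and Pgk1 did not overlap between genotypes in any condition, whereas Pgam1, Eno1 and Ldha overlapped at 8 weeks. Ldha, which feeds pyruvate to lactate and is kept low in beta cells, differed by -0.04, -0.60 and -0.78 (adjusted p = 0.0459, limma). Its call ended when any of 14 single libraries was left out (adjusted p up to 0.0873). Among the genes not called, the pyruvate kinase gene Pkm was at -0.23, -0.18 and 0.01 (mean adjusted p = 0.0609, limma) and Gapdh, the dehydrogenase between Tpi1 and Pgk1, at -0.23, -0.18 and -0.03 (mean adjusted p = 0.115, limma). Many of these genes have processed pseudogenes, and Aldoa overlaps Fam57b on the other strand, so their reads could be partly shared.

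A list of targets of the hypoxia-inducible factors, made after values had been seen, shares genes with the glycolysis list. Of 26 tested targets, 8 were shared genes lower in deleted islets and 0 were higher, beside 1.5% and 0.915% of all tested genes. Of the 26, 13 were below 0 in all conditions, as were 12.5% of all tested genes, and the list's median difference was -0.19, against -0.000636 for all tested genes. Without the HFD libraries 1 was called. P4ha1 encodes a subunit of the enzyme that hydroxylates collagen. It held 22.2, 22.1 and 21.9 FPKM in deleted islets at 8 weeks, 21.1, 22.8 and 25.0 FPKM at 14 weeks on chow, and 21.7, 19.9 and 19.97 FPKM on HFD. Its floxed libraries held 27.3, 26.0 and 38.3 FPKM, 29.2, 27.6 and 35.2 FPKM, and 34.0, 42.0 and 36.5 FPKM. The deleted libraries were tightly grouped and all lay below the floxed libraries, which spread more widely (mean -0.55, adjusted p = 9.93e-05, limma).

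Ankrd37, a small ankyrin-repeat protein gene induced by hypoxia, had the second largest mean fall of the shared genes (-0.95, SE 0.162, adjusted p = 0.00515, limma). In deleted islets it measured 6.83, 6.56 and 6.96 FPKM at 8 weeks, 8.12, 7.67 and 6.70 FPKM at 14 weeks on chow, and 4.41, 9.52 and 4.62 FPKM on HFD. In floxed islets it measured 12.5, 14.3 and 25.8 FPKM, 13, 8.28 and 12.7 FPKM, and 11.3, 18.7 and 13.7 FPKM. Replicate 3 of the floxed 8-week group was again the highest, and the genotypes nearly met at 14 weeks on chow. Bnip3 (-0.46) and Bnip3l (-0.16), receptors that mark mitochondria for removal, were lower, as were Pdk1 (-0.37), a kinase that slows pyruvate entry into mitochondria, and Mif (-0.44), a secreted cytokine. The call of Bnip3l ended when any of 8 single libraries was left out (adjusted p up to 0.0634, limma). The other 18 targets were not called. Among them, Higd1a, a mitochondrial protein gene, was at -0.40, -0.36 and 0.84, the oxygen sensor gene Egln1 at -0.32, -0.33 and 0.43, and Ero1l, an oxidase gene of the endoplasmic reticulum, at -0.30, -0.08 and 0.17. Vegfa, the vascular growth factor gene, was at -0.19, -0.15 and 0.08 (mean adjusted p = 0.416, limma) and the glucose transporter gene Slc2a1 at -0.19, -0.26 and 0.07 (mean adjusted p = 0.456, limma).

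**Figure D4:**
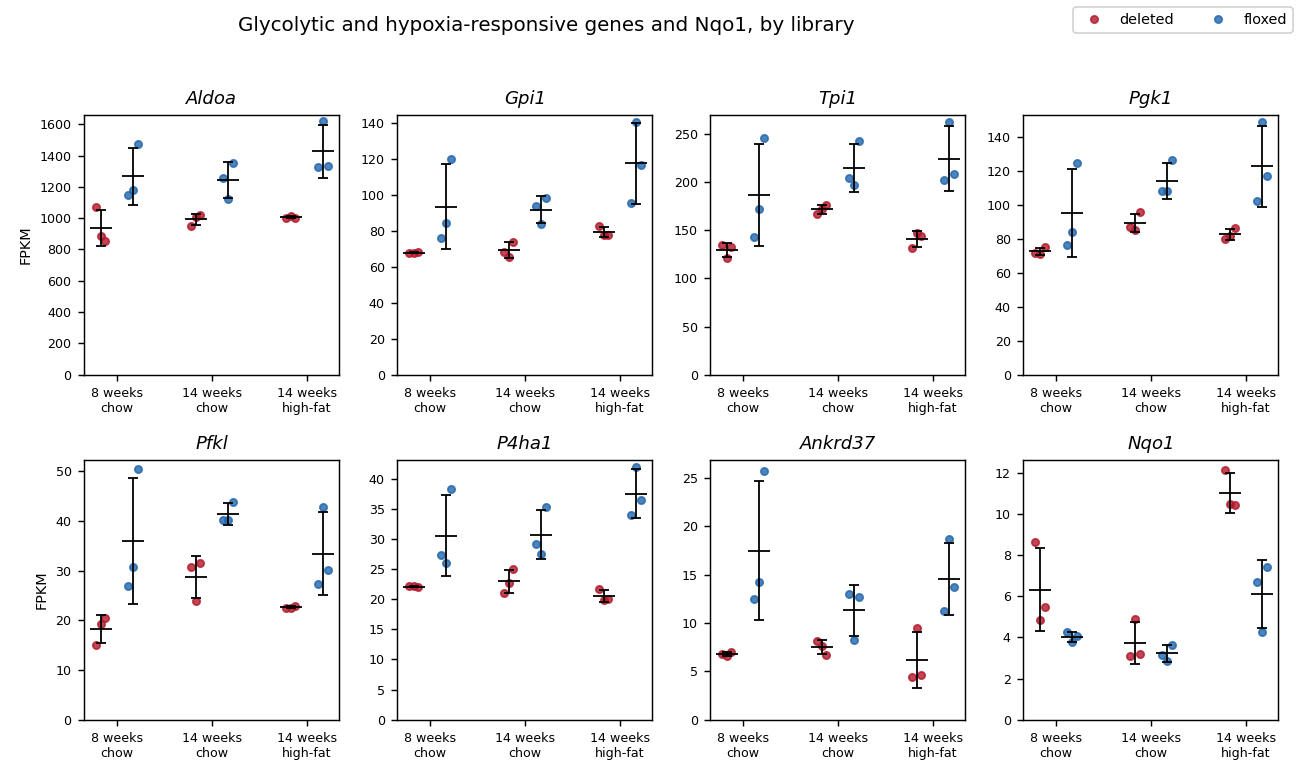
FPKM (vertical axis, from 0) of glycolytic genes, hypoxia-responsive genes and Nqo1 in each of 18 libraries, with deleted libraries in red to the left of floxed libraries in blue within each condition. Black marks are the mean and SD of 3 libraries; P4ha1 holds 19.9 to 25.0 FPKM in deleted libraries, against 26.0 to 42.0 FPKM in floxed ones, and Nqo1 overlaps at 14 weeks on chow.

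RefSeq windows from 250 bases before to 50 bases after each start (GRCm38.p6, the mm10 assembly) were searched on both strands for ACGTG or GCGTG, the core letters of a hypoxia response element. Either was present in 7 of the 7 called targets with a window, in 19 of all 22 targets (86.4%) and in 6 of the 9 glycolytic shared genes (66.7%). They were present in 60.8% of the shared genes lower in deleted islets and in 64.4% of 9750 tested genes, so the letters were common. A match is a description of letters and not of a bound site. Below are the 250 bases before the start of 3 of the genes with several matches, Bnip3 at chr7:138909507-138909756 (minus strand), Pgam1 at chr19:41911621-41911870 (plus strand) and Pgk1 at chrX:106186850-106187099 (plus strand). Capitals mark the matches on either strand.
Bnip3: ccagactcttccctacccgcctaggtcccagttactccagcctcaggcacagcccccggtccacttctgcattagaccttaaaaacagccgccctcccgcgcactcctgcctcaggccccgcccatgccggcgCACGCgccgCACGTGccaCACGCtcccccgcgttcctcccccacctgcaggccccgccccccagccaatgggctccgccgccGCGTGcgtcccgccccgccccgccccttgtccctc
Pgam1: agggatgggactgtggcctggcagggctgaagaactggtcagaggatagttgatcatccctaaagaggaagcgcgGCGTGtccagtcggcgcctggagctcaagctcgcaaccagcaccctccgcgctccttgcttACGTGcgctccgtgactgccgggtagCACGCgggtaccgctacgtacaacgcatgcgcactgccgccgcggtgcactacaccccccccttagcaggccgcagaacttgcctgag
Pgk1: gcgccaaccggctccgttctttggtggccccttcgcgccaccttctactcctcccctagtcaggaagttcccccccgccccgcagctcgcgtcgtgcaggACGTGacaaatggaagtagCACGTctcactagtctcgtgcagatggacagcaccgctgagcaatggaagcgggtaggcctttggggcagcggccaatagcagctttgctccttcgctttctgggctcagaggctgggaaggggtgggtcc

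Some NRF2 targets, on a list also made after values had been seen, were higher in deleted islets. Of 22 tested, 5 were shared genes higher in deleted islets and 0 were lower, beside 0.915% and 1.5% of all tested genes, and 16 were not called in the mean. Of the 22, 13 were above 0 in all conditions, as were 14% of all tested genes, and the median difference was 0.13. Nqo1, a quinone reductase, measured 8.62, 4.87 and 5.46 FPKM in deleted islets at 8 weeks, 3.10, 4.89 and 3.19 FPKM at 14 weeks on chow, and 12.1, 10.5 and 10.4 FPKM on HFD. The floxed values were 4.28, 3.79 and 4.05 FPKM, 3.15, 2.87 and 3.65 FPKM, and 6.69, 4.24 and 7.41 FPKM. The genotypes were apart at 8 weeks and on HFD and overlapped at 14 weeks on chow (mean 0.48, adjusted p = 0.0155, limma).

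The other 4 were the glutathione transferase gene Gstp1 (0.33, 0.08 and 0.50), Ugdh, which makes UDP-glucuronate (0.15, 0.02 and 0.53), the sulfiredoxin gene Srxn1 (0.13, 0.03 and 0.49), and Sqstm1, which encodes the autophagy receptor p62 (0.12, 0.10 and 0.19). At 14 weeks on chow the Ugdh and Srxn1 differences were close to 0, and both genes were unequal between conditions. The thioredoxin reductase gene Txnrd1 was at 0.13, 0.11 and 0.15 without a call (mean adjusted p = 0.0522, limma). Reads of Gstp1 could be shared with its close copy Gstp2. The count of 5 was 3 without replicate 1 of the deleted 14-week chow libraries and 0 without the HFD libraries. The metallothionein genes Mt1 (0.33) and Mt2 (0.39), which lie side by side on chromosome 8 and bind zinc, were also higher (adjusted p = 0.0169 and 0.00565, limma).

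Klk14, a serine protease gene, had the largest mean rise of the shared genes. It held 7.52 to 13.6 FPKM in deleted libraries, against 4.89 to 10.5 FPKM in floxed ones, with differences of 0.21, 0.60 and 1.07 (mean 0.63, adjusted p = 3.04e-04, limma). C4bp, which encodes a regulator of complement, held 0.846 to 3.46 FPKM in deleted libraries, against 0.207 to 1.54 FPKM in floxed ones (mean 0.58). The glucuronosyltransferase gene Ugt2b36 (0.81, 0.07 and 0.83) and the cytochrome P450 gene Cyp3a13 (0.71, 0.06 and 0.41) rose in the mean and were near 0 at 14 weeks on chow. The zinc-finger gene Plagl1 (0.47, 0.06 and 0.83) did likewise and was unequal between conditions, and the tubulin ligase gene Ttll3 differed by 0.31, 0.46 and 0.53.

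Among the largest falls, several rested mainly on HFD. Igfbp3, a carrier of insulin-like growth factors, measured 37.9, 42.8 and 46.2 FPKM in deleted islets at 8 weeks, 44.4, 48.3 and 49.99 FPKM at 14 weeks on chow, and 21.7, 27.8 and 28.0 FPKM on HFD. In floxed islets it measured 47.2, 46.1 and 65.8 FPKM, 53.7, 60.7 and 78.8 FPKM, and 73.1, 79.3 and 69.3 FPKM. On the HFD the deleted libraries were at their lowest and the floxed libraries stayed high (differences -0.30, -0.41 and -1.49; unequal, adjusted p = 0.00247, limma). Dapl1 (-0.11, -0.17 and -1.68), the potassium channel gene Kcnj8 (-0.07, -0.32 and -1.45) and the muscle-type fructose bisphosphatase gene Fbp2 (-0.43, -0.10 and -1.29) also had their largest difference there. Each of the 3 was unequal between conditions.

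The other lists held at most 3 shared genes each, where 2.41% of all tested genes were shared genes, and counts this small are given as descriptions. Of 15 tested cadherins and catenins, Cdh13 was lower and Cdh8, a neuronal cadherin gene, was higher (0.14, 0.04 and 0.75, adjusted p = 0.0109, limma). None of 9 adiponectin receptor and effector genes was a shared gene. Of 11 insulin degradation and signalling genes, Ide was lower and Igf1r, the receptor of insulin-like growth factor, was higher (0.20, 0.15 and 0.81). Of 17 Notch pathway genes, the ligand gene Dll4 (-0.01, -0.37 and -0.56) and the target gene Hey1 (-0.28, -0.70 and -0.20) were lower, and the call of Hey1 ended without any of 7 single libraries (adjusted p up to 0.0620, limma). Of 16 interferon response genes, Irf7 was lower (-0.27, -0.41 and -0.996), as was Ifit3 (-0.12, -1.10 and -1.51). Gbp11 was higher (0.80, 0.05 and 0.40). Of the 16, 5 were called lower in the mean, beside 2.39% of all tested genes. Of these 5, Rsad2, Ifit1 and Ifit2 were above 0 at 8 weeks (0.13, 0.20 and 0.04). The interferon list had a median difference of 0.17, -0.15 and -0.36 in the 3 conditions. The neighbour of Ifit3, Ifit3b, was also lower (-0.39, -0.94 and -0.97), and reads of these near-identical genes could be split between them. The calls of Ifit3 and Gbp11 ended without any of 14 and 6 single libraries (adjusted p up to 0.0792 and 0.0594, limma).

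Of 17 unfolded protein response genes, the disulfide isomerase gene Pdia4 (0.15) and the glutathione-degrading enzyme gene Chac1 (0.19) were higher and the chaperone gene Sdf2l1 (-0.14) was lower. These calls ended without any of 4, 3 and 14 single libraries (adjusted p up to 0.0631, 0.0589 and 0.0791, limma). The 3 for Chac1 were all floxed, replicate 3 at 8 weeks, replicate 1 at 14 weeks on chow and replicate 3 on HFD. Of 12 endothelial markers, 4 were called lower in the mean, beside 2.39% of all tested genes. Of the 4, Egfl7 was a shared gene (-0.18, -0.34 and -0.48), while Esam, Cdh5 and Tie1 were above 0 at 8 weeks (0.15, 0.01 and 0.21). The endothelial list had a median difference of 0.17, -0.32 and -0.44, and the summed endothelial markers on HFD made up 0.0113% to 0.0117% of FPKM in deleted and 0.0136% to 0.0169% in floxed libraries. Their part in the lower endothelial genes was not tested. Of 9 fibroblast and pericyte markers 0 were shared genes, but their median differences were 0.08, -0.41 and -0.67, and the pericyte receptor gene Pdgfrb was called in the mean (-0.41, adjusted p = 0.0408, limma). On HFD these markers made up 0.00151% to 0.00174% of FPKM in deleted and 0.00203% to 0.00460% in floxed libraries, beside the HFD falls of Kcnj8, P4ha1 and Igfbp3. Their part in those differences was not tested. No shared gene was found among alpha cell, delta and PP cell, duct, macrophage, ribosomal protein, immediate early, cell cycle, adipocyte, erythroid, Schwann cell or sex-linked genes.

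Of 25 tested beta cell genes, 1 was a shared gene, a share near the 2.41% of all tested genes. It was the transcription factor gene Neurod1 (0.14, 0.01 and 0.39). Its call ended without any of 11 single libraries (adjusted p up to 0.0741, limma). The insulin genes Ins1 (mean 0.04, adjusted p = 0.744, limma) and Ins2 (mean -0.02, adjusted p = 0.930, limma) were not called. Gcg was at -0.65, -0.25 and 0.71, Sst at -0.01, -0.38 and 0.85, and Ppy at 2.04, -0.41 and 0.07, so their signs differed between conditions. The transcription factor gene Pdx1 was at -0.12, 0.02 and 0.59, Mafa at -0.41, -0.20 and 0.83, and Ucn3, a marker of mature beta cells, at -0.16, -0.12 and 0.18. The glucose transporter gene Slc2a2 was called in the mean (0.29, adjusted p = 0.00436, limma) but at -0.18, -0.00 and 1.05 it was no shared gene. Gc, Pamr1, Tmsb15b2, Tmem37 and Sat1 were the 5 called genes with the most unequal differences and opposite signs. Gc, the vitamin D binding protein gene, was at 0.08, 0.18 and -1.05, for example.

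By position, the shared genes made up 4.85% of tested genes on chromosome 19 (21 of 433) and 3.55% on chromosome 7 (33 of 929), and 2.70% on chromosome 8, where Cdh13 lies (18 of 667), beside 2.41% of all tested genes. Shared genes of one direction within 1 Mb of each other formed 35 runs on many chromosomes. These runs held 82 of the 294 shared genes with a position. How many runs would form among all tested genes was not tested. Examples are the run from Fgfbp3 to Ide and, on chromosome 8, Ankrd37 with Snx25 (-0.42) and Cyb5b with Nqo1.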

How the data were processed

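RNA of isolated islets was sequenced in 18 libraries. Per the labels' protocols, a miRNeasy kit gave total RNA, and SMART-Seq HT and Nextera chemistry, which does not mark strand, gave the libraries. For each library the authors deposited FPKM values per gene. The submitters' processing notes name Cufflinks 2.2.1, TopHat2 2.0.13, SAMtools 0.1.19 and Bowtie2 2.2.3 beside the build mm10, while annotation and filters are not given in the sources here. FPKM as the unit was read from the use of Cufflinks and from the values, since no label or header names it. Fragment totals are unknown, so no counting interval is given; the estimated value of 1 fragment spanned 1.39 times between libraries.

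A gene was kept if 3 or more libraries reached 1 FPKM. R 4.3.3 with limma 3.58.1 and statmod 1.5.0 fitted log2(FPKM + 1) by 6 group means, using robust empirical Bayes variances with an intensity trend. The mean of 3 genotype differences, each difference and their inequality were tested, with p-values adjusted by Benjamini-Hochberg over 12234 genes at 0.05. On simulated data with 12161 genes, calls in the mean contrast with the same sign in all 3 conditions were scored. They recovered 44.8%, 97.0% and 98.5% of genes changed by 0.25, 0.5 and 1, with 8 false calls. In that test 0 genes had differences called unequal between conditions, against 580 of 12234 genes in the islet libraries. The number of false calls where the differences are unequal, and so among the shared genes, was not tested. Exact permutation of genotype within conditions (8000 arrangements) gave 2.5e-04, the smallest possible, for genes without overlap in any condition. The lack of overlap itself fixes this value, so it adds no support for these genes. Positions came from RefSeq, which matched 23142 symbols and 1086 synonyms. Figures were drawn with matplotlib 3.10.9 and tables made with pandas 2.3.3, under python 3.11.15 with numpy 2.4.6.

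Named were Cdh13 and islet hormone and beta cell genes; up to 30 shared genes without overlap by smallest p; the 12 largest rises and falls; up to 4 called genes per list; 5 called genes of opposite signs; and neighbours within 1 Mb. Some of these are not reported here. The genes called over chow alone, and a few further examples, were chosen after their values were seen. The members and lists were chosen with earlier results of these data known, and the hypoxia and NRF2 lists and the reading of a condition left out were added after values were seen. Alternatives were another pseudocount, filters, scalings, quality weights, no variance trend, replicate blocks, an acinar covariate, and each condition or library left out. Same-numbered deleted and floxed libraries deviated together with r of -0.16 to 0.16, so the numbers were not taken to pair samples.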

Additional observations from a re-analysis of the deposited data

Results flagged for a closer look

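The genotype difference was itself unequal between the 3 conditions for 26 of the 94 genes followed, of which 13 are shared genes, by limma's joint test with adjustment over all tested genes. Among genes lower in deleted islets the adjusted p for inequality was 2.20e-04 for Dapl1, 0.00247 for Igfbp3, 0.00265 for Kcnj8 and 0.0147 for Fbp2, and in each the largest difference was on the high-fat diet. Among genes higher in deleted islets it was 0.00179 for Star, 0.00595 for Igf1r, 0.00764 for Ugdh and 0.00880 for Enpp2. It was 0.0166 for Cdh8, 0.0197 for Plagl1, 0.0267 for Plk3, 0.0297 for Srxn1 and 0.0335 for Cyb5b. Of these 9, Star had its largest difference at 14 weeks on chow and the other 8 on the high-fat diet.

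The genes outside the shared set changed sign between conditions. The adjusted p for inequality was 1.28e-06 for Gc, 2.49e-06 for both Pamr1 and Tmsb15b2, 3.22e-06 for Tmem37, 5.65e-06 for Sat1 and 1.80e-05 for Slc2a2. It was 1.34e-04 for Sst, 1.51e-04 for Ttr, 2.69e-04 for Gcg, 0.00153 for Map3k15, 0.00207 for Gfra3, 0.00376 for Pdx1 and 0.0470 for Ucn3. Tmsb15b2 overlaps near-identical copies, so its value is uncertain.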

How the results depend on the processing

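The 295 shared genes (112 higher, 183 lower) depended most on the high-fat diet. Without those libraries 25 genes were called in one direction (6 higher, 19 lower), 14 of them among the 295. Each fit without a condition, whichever it was, held 12 instead of 18 libraries. Without the 8-week libraries the counts were 542, 189 and 353, and without the 14-week chow libraries 482 in all and 318 lower, where only 2 signs had to match; 198 and 223 of the 295 were among them. Quality weights gave 613, 255 and 358, of which 263 were among the 295. Leaving out single libraries gave 204 to 334 in all, 72 to 144 higher and 132 to 198 lower. The fewest higher genes were left without replicate 3 of the floxed high-fat diet group (72) and of the floxed 8-week group (73). Of the 295, 197 (66.8%) to 246 (83.4%) were still shared without a single library. The fewest remained without replicate 3 of the floxed high-fat diet group. Genes with unequal differences numbered 580, against 1174 with quality weights, 14 without the high-fat diet and 396 to 624 without single libraries. The cause was not tested. Without the high-fat diet the signs turned for Slc2a2 (-0.0923), Gc (0.13), Pamr1 (0.15), Tmsb15b2 (-0.18), Tmem37 (0.20) and Sat1 (0.10), as the opposite signs on that diet fix. Cdh13 kept its sign and call in every alternative that tested it.

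With the replicate number as a block over all libraries 272 genes were shared, and 254 with the block within condition. Of these, 255 and 218 were among the 295. In 5 of 9 cases a deleted library correlated best with the floxed library of its own number. Other scalings, filters, variance settings, the acinar covariate and another pseudocount gave 235 to 306. Among these, the fit with no filter on low values kept the fewest of the 295 (216). The unknown depth limits genes below 5 FPKM, 67 of the 295.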
